A study of Homo sapiens with 8 samples.

Results

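The comparison described here is that of CAL-62 cells given THZ1 with CAL-62 cells given the vehicle DMSO. CAL-62 is an established human anaplastic thyroid carcinoma line. The groups were CAL-62 with 100 nM THZ1 for 6 h (2 libraries) and CAL-62 with DMSO (2 libraries), which are 4 of the 8 poly(A)-selected RNA-seq libraries of the series. The other 4 are the same treatment and vehicle in BCPAP, a second thyroid carcinoma line. They enter here only through the filter on low values, the shared estimate of spread and 1 closing comparison. CAL-62 cells were grown in DMEM with serum, and the labels give neither a time for the DMSO cells nor separate cultures for the replicates. The p-values below therefore rest on differences among single libraries that may be no more than technical.

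THZ1 is a covalent inhibitor of CDK7 that also binds CDK12 and CDK13. CDK7, with cyclin H (CCNH) and MAT1 (MNAT1), forms the kinase module of the general transcription factor TFIIH. It phosphorylates the tail of RNA polymerase II as transcription starts and also activates the kinases of the cell cycle. RNAs differ in how long they last in the cell: those for transcription factors and signalling proteins tend to be short-lived, and those for ribosomes and metabolism long-lived. The study's question was how thyroid cancer cells respond when CDK7 is inhibited.

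The deposited tables for CAL-62 list 11513 genes, of which 11362 were tested. These had a mean value of at least 1 over all libraries that list them, those of BCPAP included. Values are RPKM-type values, that is, reads scaled to gene length and to a total set for each library, which is not its count of reads. Each change is the THZ1 mean minus the DMSO mean of log2(value + 1), a scale on which 1 is close to 2-fold for genes well above 1 and understates the change of low genes. Calls rest on limma, with p-values adjusted by Benjamini-Hochberg over all 11362 genes and a threshold of 0.05. Changes within replicate number 1 (THZ1 1 against DMSO 1) and within number 2 are given beside them as a description, since no label explains the numbers. The THZ1 libraries held 16682484 and 19989710 reads in listed genes, against 18779571 and 19330129 for the DMSO libraries. The totals implied by the values were 13804955 and 18698403 for THZ1, below these reads, and 21580812 and 23563592 for DMSO, above them. The deposited scaling therefore raises THZ1 values against DMSO values, compared with a scaling by these reads. The median gene had 399 and 526 reads after THZ1, against 667 and 730 under DMSO. The lowest DMSO mean in the table is just above 1, so genes that THZ1 may have turned on from silence are outside it. The scaling sets a typical gene level between libraries, so a change in total mRNA per cell does not show in the values. In bulk RNA, fewer cells of a type and less RNA per cell cannot be told apart.

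After THZ1 525 genes passed the threshold, and most of them were lower. That balance depends on the fit: with a replicate block the counts were 2060 lower and 2503 higher, and at an unadjusted p under 0.05 limma had 1779 lower and 1639 higher. Of the 11362 genes tested, 459 were called lower (4.04%) and 66 higher (0.581%). The genes called lower had a median change of -1.51 and were mostly low in level (median value 4.91), whereas the genes called higher had a median change of 0.98 and a median value of 73.0, beside a median value of 9.74 for all genes. A change of at least 2-fold in the same direction within both replicate numbers was seen in 549 genes downward (4.83%) and 87 upward (0.766%), and 384 of the genes called lower and 17 of those called higher were among them. The sign within the numbers was the same for 8710 genes (76.7%). The counts rest on single libraries and on the spread shared with BCPAP. The 4 CAL-62 libraries alone gave 0 calls with limma (2960 genes at an unadjusted p under 0.05), the fit without DMSO replicate 1 gave 9 lower and 0 higher (2425), and the one without DMSO replicate 2 gave 0 (1896). Without THZ1 replicate 1 there were 258 lower and 2 higher, without BCPAP DMSO replicate 1 or 2 there were 180 or 176 lower and 6 or 5 higher, and without BCPAP THZ1 replicate 1 or 2 there were 522 or 521 lower and 289 or 285 higher.

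**Figure D1:**
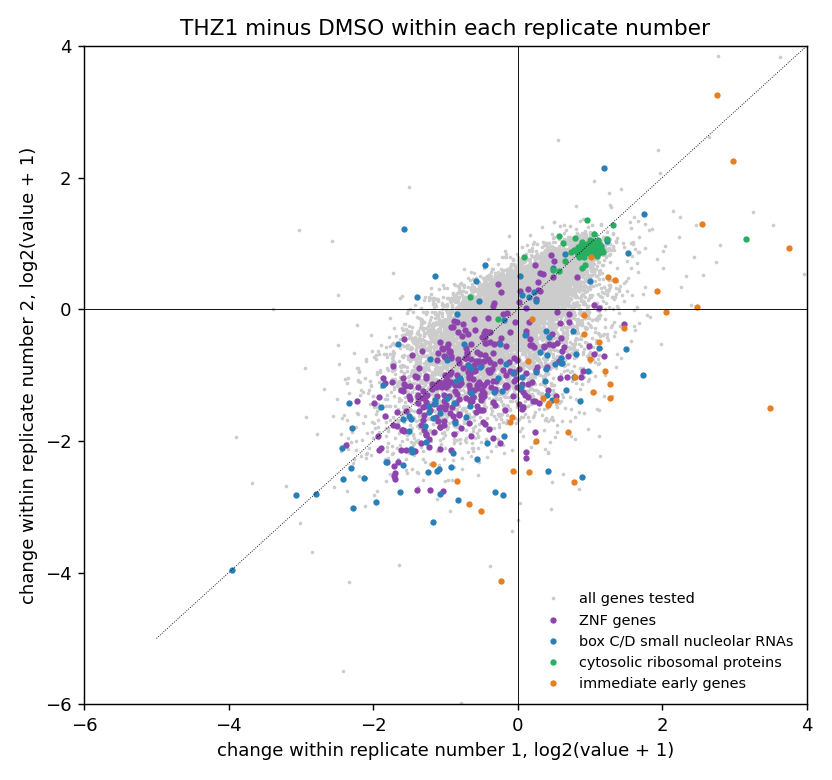
Each point is 1 of the 11362 genes tested. The horizontal axis is the change within replicate number 1 and the vertical axis the change within number 2, both as THZ1 minus DMSO in log2(value + 1), and 4 gene lists are coloured. ZNF genes and box C/D small nucleolar RNAs lie mostly in the lower left, ribosomal protein genes cluster near 0.99 and 0.91 in the upper right, and many immediate early genes lie at the lower right, where the change is positive within number 1 and negative within number 2.

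The kinase module itself did not pass the test. CDK7 had 10.4 and 9.62 after THZ1, against 11 and 11.5 under DMSO (change -0.15, limma adjusted p = 0.639). CCNH had 48.1 and 26.4 after THZ1, against 26.1 and 20.7 under DMSO, and MNAT1 had 30.7 and 18.8 after THZ1, against 22.7 and 16.9 under DMSO. Neither CCNH nor MNAT1 was called, and the MNAT1 values of the groups overlap.

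Of the 15 largest called falls with a mean value of at least 5, 5 were in box C/D small nucleolar RNAs and 1 was in the lineage factor PAX8, a class and a gene described below. Among the others were XBP1, ZBED5, FADD, CDC42EP2 and ZC3H4. XBP1, which drives the unfolded protein response, had 5.97 and 3.82 after THZ1, against 34.3 and 83.8 under DMSO. Its THZ1 values lie far below both DMSO values, which themselves differ by more than 2-fold (change -3.24, SE 0.42, limma adjusted p = 0.0166). ZBED5, a zinc finger protein whose gene came from a transposable element, fell to 1.48 and 0.859, against 19 and 16.6 under DMSO (change -3.13, SE 0.34, limma adjusted p = 0.0146). FADD, the adaptor that joins death receptors to caspases, fell to 3.28 and 3.35, against 24 and 27.4 under DMSO, with the libraries of each group close together (change -2.62, SE 0.21, limma adjusted p = 0.009). CDC42EP2, an effector of the small GTPase CDC42, fell to 2.67 and 2.16, against 14.9 and 24 under DMSO (change -2.55). ZC3H4, a zinc finger protein that helps end unproductive transcription, fell to 0.699 and 1.77, against 10.6 and 9.33 under DMSO (change -2.34). Each of these 5 genes was at least 2-fold lower within both numbers.

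The largest rises in genes that code for protein were ARC, TNFRSF10D, SAT1 and SNAI1. ARC, a fast-response gene studied mostly in neurons, had 10.9 and 21 after THZ1, against 0.756 and 1.31 under DMSO (change 3.0, SE 0.37, limma adjusted p = 0.0227). The polyamine-acetylating enzyme SAT1 had 179 and 137 after THZ1, against 31.7 and 55.8 under DMSO (change 1.87, SE 0.29, limma adjusted p = 0.0224). SNAI1, a repressor of epithelial genes, had 23.1 and 13.9 after THZ1, against 4.15 and 5.96 under DMSO (change 1.66). In all 3 both THZ1 libraries lie above both DMSO libraries. Smaller rises were in SRRT, a partner of the nuclear cap-binding complex, at 174 and 145 after THZ1, against 77.2 and 59.1 under DMSO, in OAT, ornithine aminotransferase, at 119 and 93, against 48.6 and 46.2, and in OTUD3, a deubiquitinase, at 11 and 6.62, against 2.88 and 3.04. TUBB2A, a beta-tubulin, had 60 and 45.8 after THZ1, against 18 and 24.5 under DMSO, and is uncertain because a near-identical tubulin gene can share its reads.

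The promoter windows of 2 genes called lower and 2 called higher are shown because they let the proximal sequence of a fallen and a risen gene be read side by side. These genes had the largest called changes, at a mean of at least 5, among genes that had a window and passed a chromosome filter. ARC, TNFRSF10D and SNAI1 rose more than TUBB2A and were passed over by that rule. The windows are the 150 bases before the start site in RefSeq on GRCh38.p14, 5′ to 3′ on the gene's strand. Capitals mark the TATA box letters TATAAA, the CCAAT box and the GC box letters GGGCGG, each read on either strand, and in ZBED5 a CCAAT box and a GC box share bases. The windows lie at chr22:28800570-28800719 (minus strand) for XBP1, chr11:10858054-10858203 (minus) for ZBED5, chrX:23783023-23783172 (plus) for SAT1 and chr6:3157545-3157694 (minus) for TUBB2A.
XBP1: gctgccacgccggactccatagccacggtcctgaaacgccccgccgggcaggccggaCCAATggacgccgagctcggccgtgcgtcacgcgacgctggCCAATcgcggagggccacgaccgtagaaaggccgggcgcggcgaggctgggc
ZBED5: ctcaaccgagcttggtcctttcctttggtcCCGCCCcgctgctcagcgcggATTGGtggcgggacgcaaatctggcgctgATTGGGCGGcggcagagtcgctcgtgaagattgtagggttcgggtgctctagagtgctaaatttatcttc
SAT1: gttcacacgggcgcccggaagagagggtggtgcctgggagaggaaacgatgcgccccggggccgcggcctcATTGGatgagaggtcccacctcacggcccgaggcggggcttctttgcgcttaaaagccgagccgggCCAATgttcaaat
TUBB2A: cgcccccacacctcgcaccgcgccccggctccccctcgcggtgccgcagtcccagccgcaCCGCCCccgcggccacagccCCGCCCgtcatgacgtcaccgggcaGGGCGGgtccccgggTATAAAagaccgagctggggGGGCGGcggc
XBP1, ZBED5 and SAT1 each hold 2 CCAAT boxes, and ZBED5 also holds 2 GC boxes. TUBB2A holds 4 GC boxes and 1 TATA box. Of 27305 windows of this length, 7.05% hold the TATA box letters, 24.4% the CCAAT box and 36.7% the GC box letters. A match is a run of letters, not a shown site, and no comparison over all genes was made because 68.3% of the tested genes matched a window by symbol.

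Genes for zinc finger transcription factors fell together. The ZNF genes encode proteins whose zinc fingers bind DNA, many of them with a repressor domain that silences repeats and genes. Of 340 tested ZNF genes, 72 were called lower (21.2%, beside 4.04% of all genes) and none was called higher by limma (2 at an unadjusted p under 0.05, and 0 by limma-voom). Their median change was -0.82, beside 0.03 for all genes, and it was -0.64 within number 1 and -1.09 within number 2. A negative change was seen in 309 of the 340. ZNF187 fell to 0.694 and 0.778, against 7.81 and 6.42 under DMSO (change -2.22, SE 0.21, limma adjusted p = 0.012). ZNF48 fell to 1.53 and 1.23, against 7.22 and 12.3 under DMSO, and ZNF7 to 2.61 and 0.879, against 10.9 and 9.90 under DMSO. In each of these genes both THZ1 libraries lie well below both DMSO libraries.

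The related ZBTB, ZSCAN, ZKSCAN, ZFP and ZBED genes went the same way, with 15 of 59 called lower (25.4%, beside 4.04% of all genes) and a median of -0.79. Among them ZFP62 fell to 0.342 and 0.359, against 4.27 and 3.74 under DMSO, and ZSCAN16 to 0.397 and 1.51, against 5.45 and 6.59 under DMSO. Joined, the zinc finger lists hold 3.51% of the genes tested and 19.0% of those called lower (87 of 459). The 2 most abundant members were not called. ZNF185, a LIM-domain protein of the cytoskeleton in spite of its name, had 152 and 123 after THZ1, against 110.4 and 69.3 under DMSO, and ZNF207, a mitotic spindle protein, had 115 and 95.7, against 106 and 94 under DMSO. ZNF genes are low genes (median value 2.62), and lower calls were commoner among low genes in general, as given with the exon numbers below, in a table that low genes enter through their DMSO value. Of all reads in listed genes the ZNF genes took 0.510% and 0.411% after THZ1, against 0.897% and 0.980% under DMSO.

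Homeobox genes, which encode developmental transcription factors, showed a smaller shift in the same direction, with a median of -0.54. Of 49, 4 were called lower (8.16%, beside 4.04% of all genes). TGIF2, a repressor of TGF-beta responses, fell to 2.70 and 1.65, against 10.2 and 10.6 under DMSO (change -1.86, SE 0.33, limma adjusted p = 0.0274), and PBX3, a partner of HOX proteins, to 10.5 and 13.2, against 34.8 and 29.2 under DMSO. PAX8, the lineage transcription factor of the thyroid, fell to 5.20 and 29.8, against 91.1 and 117 under DMSO. Its THZ1 libraries differ from each other by more than 5-fold, yet both lie below both DMSO libraries (change -2.92, SE 0.64, limma adjusted p = 0.0469). Of 14 thyroid lineage markers 2 are listed, PAX8 and HHEX, and HHEX had 72.4 and 54.6 after THZ1, against 22.3 and 53.3 under DMSO, without a call. Thyroglobulin, thyroid peroxidase and the TSH receptor are not in the table, and of the markers of blood cells and of fibroblasts 1 gene each is listed (of 11 and 9), and none of 7 endothelial markers is listed.

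**Figure D2:**
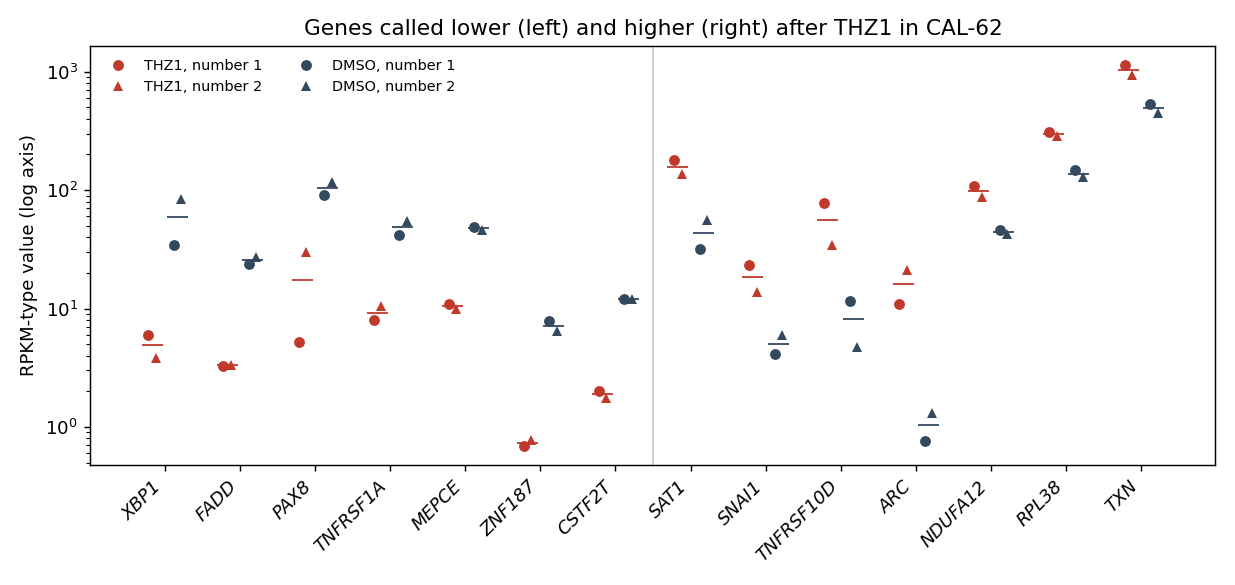
Deposited RPKM-type values (vertical log axis) of 7 genes called lower and 7 called higher, each with its 2 THZ1 libraries (red) left of its 2 DMSO libraries (dark blue), with circles for replicate number 1, triangles for number 2 and bars for the group means. In every gene drawn both points of one group lie on the same side of both points of the other, and the PAX8 points of the THZ1 libraries, at 5.20 and 29.8, are the farthest apart.

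Small nucleolar RNAs were also called lower more often than genes at large. They guide chemical modification of ribosomal RNA, and most are cut out of the introns of other genes as these are spliced. Of 111 box C/D RNAs, which guide methylation, 18 were called lower (16.2%, beside 4.04% of all genes). Within both numbers 35 were at least 2-fold lower (31.5%, beside 4.83% of all genes) and 3 at least 2-fold higher (2.7%, beside 0.766%). Their median was -0.83, which was -0.64 within number 1 and -1.22 within number 2. Of 53 box H/ACA RNAs, which guide pseudouridylation, 4 were called lower (7.55%, median -0.70, which was -0.38 within number 1 and -1.06 within number 2). Both medians move with single THZ1 libraries: without THZ1 replicate 1 they were -1.39 for box C/D and -1.26 for box H/ACA RNAs, and without THZ1 replicate 2 they were -0.40 and -0.18. The lists had 5 and 0 lower calls with limma-voom on recovered reads. Depth limits these features: with a median length of 93.5 bases the median RNA had 11 reads under DMSO. No read was found in at least 1 THZ1 library for 39 of the 164, and in a DMSO library for 2 of 164. The table holds only genes with a DMSO mean above 1, which keeps most such zeros out of the DMSO libraries beforehand. Nothing is read from that contrast, and low RNAs could fall more readily than rise. The libraries were selected for poly(A), which mature small nucleolar RNAs lack, and reads of unspliced host RNA could not be separated from theirs. The strand setting of the counting is not given in the sources used here.

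SNORD44 was read 0 times in both THZ1 libraries, against 19 and 21 times in the DMSO libraries (limma adjusted p = 0.0043). SNORD81 fell to 1.68 and 3.73, against 21.6 and 32.6 under DMSO, and SNORD27 to 1.01 and 0.743, against 12.9 and 11.2 under DMSO. The first 2 lie in introns of GAS5, a noncoding host gene that had 56.2 and 91.3 after THZ1, against 75.8 and 114 under DMSO, with overlapping groups (change -0.37, limma adjusted p = 0.417). All 10 small RNAs of GAS5 were lower within both numbers, with a median of -1.71, and SNORD44, SNORD76, SNORD79 and SNORD81 were called. SNORD76 had 8.94 and 3.30 after THZ1, against 34.3 and 20.4 under DMSO, and SNORD79 had 2.68 and 0.660, against 17.2 and 7.86 under DMSO.

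The contrast between a small RNA and its host was seen across the table. For 118 small RNAs in introns of 59 listed host genes, the median change over the 118 pairs was -0.86 for the small RNAs and 0.74 for their hosts. A host was counted there for each small RNA it holds. Of the 118 small RNAs, 103 had a change below that of the host. In 62 pairs the small RNA was negative and the host positive. In ribosomal protein genes the split was complete, with 48 of 48 small RNAs below their host (median -0.78 against 0.95 over 25 hosts). SNORD36C had 0.533 and 0 after THZ1, against 7.16 and 4.99 under DMSO, while its host RPL7A had 798 and 971 after THZ1, against 417 and 495 under DMSO. SNORD83B had 2.34 and 2.88 after THZ1, against 8.47 and 11 under DMSO, while its host RPL3 had 1509 and 1420.3, against 749 and 771 under DMSO. Of 12 listed noncoding host genes 3 were called lower (25.0%, beside 4.04% of all genes). SNHG3 fell to 5.03 and 5.90, against 19.8 and 18.1 under DMSO, SNHG12 to 3.14 and 2.82, against 10.2 and 13.8, and SNHG4 to 1.08 and 1.11, against 5.60 and 3.73 under DMSO. SNHG12 holds 4 of the small RNAs paired here, of which SNORA61 was called lower and the others were not. The pairing with hosts was chosen after the values were seen. The small RNAs are mostly low and entered the table through their DMSO value, whereas most hosts are abundant, and the contrast was not tested apart from level.

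**Figure D3:**
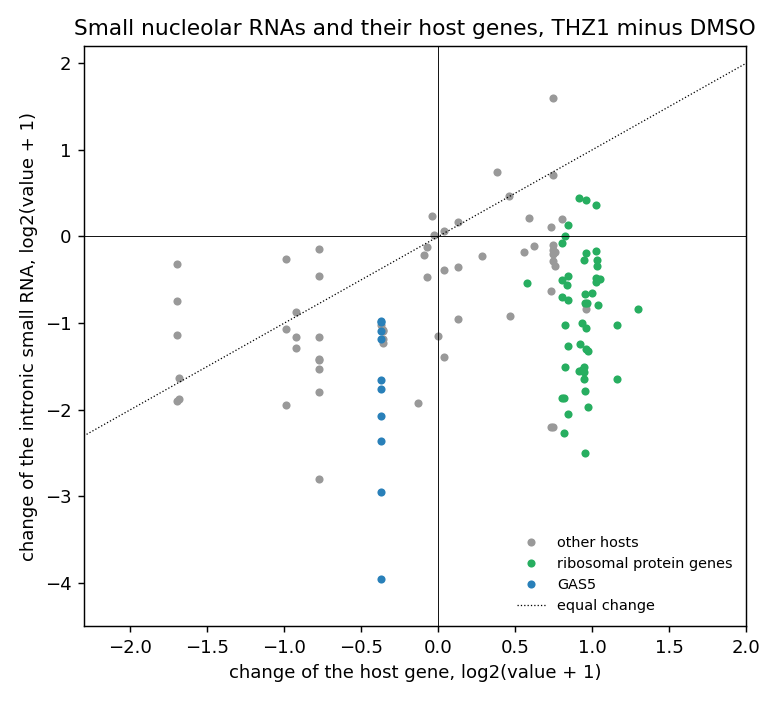
Each point is 1 of 118 intronic small RNAs. The horizontal axis is the change of its host gene and the vertical axis its own change, both as THZ1 minus DMSO in log2(value + 1); green points lie in ribosomal protein genes, blue points in GAS5 and grey points in other hosts, and the dotted line marks equal change. Of the 118, 103 lie below the diagonal, among them all 48 in ribosomal protein genes.

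In the transcription machinery, called genes were a few members of each complex. MEPCE, which caps the 7SK RNA that holds the elongation kinase P-TEFb inactive, fell to 10.9 and 9.89, against 48.8 and 46.1 under DMSO, with close replicates (change -2.09, SE 0.22, limma adjusted p = 0.0146). It was the 1 called gene of 36 elongation and pausing factors, whose median was 0.32 and turned to -0.28 with an equal total of values and to -0.55 with ribosomal protein genes as reference, and which was 0.05 without THZ1 replicate 1. Of 32 genes of polyadenylation and Integrator, the complex that cuts short and noncoding transcripts, 4 were called lower (12.5%, beside 4.04% of all genes). The median of this list was -0.15, and it turned to 0.04 without DMSO replicate 1 and to 0.09 with a filter at a mean of at least 5. CSTF2T, a cleavage stimulation factor of 1 exon, fell to 2.03 and 1.74, against 12 and 12.1 under DMSO, and INTS5 fell to 5.29 and 5.27, against 21.3 and 22.7 under DMSO. INTS6 and CSTF3 were the others (changes -1.35 and -1.02).

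Of 33 Mediator subunits 3 were called lower (9.09%, beside 4.04% of all genes). MED9 fell to 2.31 and 1.88, against 8.01 and 11.5 under DMSO, MED7 to 1.03 and 1.05, against 4.68 and 4.46, and MED8 to 4.45 and 7.16, against 13.8 and 18 under DMSO. Of 51 general transcription factors 4 were called lower (7.84%): GTF2E1, the large subunit of TFIIE, at 1.67 and 0.670, against 6.72 and 5.51 under DMSO, the RNA polymerase III factor BRF2 at 1.09 and 1.47, against 5.05 and 6.81, and the TFIID subunits TAF5 and TAF11 (changes -1.38 and -1.24). Of 30 polymerase subunits 2 were called lower (6.67%), both of RNA polymerase III. POLR3D had 2.10 and 3.30 after THZ1, against 8.34 and 11 under DMSO, and POLR3E had 6.14 and 10.9, against 22.8 and 19. POLR2F, a subunit shared by the polymerases, was called higher at 44.5 and 49.2, against 24.7 and 21.4 under DMSO. In these lists the medians (0.01 for Mediator, 0.05 for general factors and 0.13 for polymerase subunits) lie close to that of all genes (0.03), and each changes sign when 1 library is left out.

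Of 182 chromatin modifiers and remodelers 8 were called lower (4.4%) and 1 higher, close to the share of all genes. PHF23, a reader of methylated histone H3, fell to 8.68 and 4.94, against 27.2 and 31.1 under DMSO, and SUV420H2, a histone H4 methyltransferase, to 2.16 and 1.78, against 5.50 and 9.81 under DMSO. HDAC1, a histone deacetylase, had 112 and 107 after THZ1, against 52.5 and 53 under DMSO (change 1.04, limma adjusted p = 0.0365). No splicing factor of 121 was called by limma (12 lower and 31 higher at an unadjusted p under 0.05; 3 lower and 1 higher by limma-voom), and their median of 0.38 turned to -0.23 with an equal total of values and to -0.52 with ribosomal protein genes as reference.

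**Figure D4:**
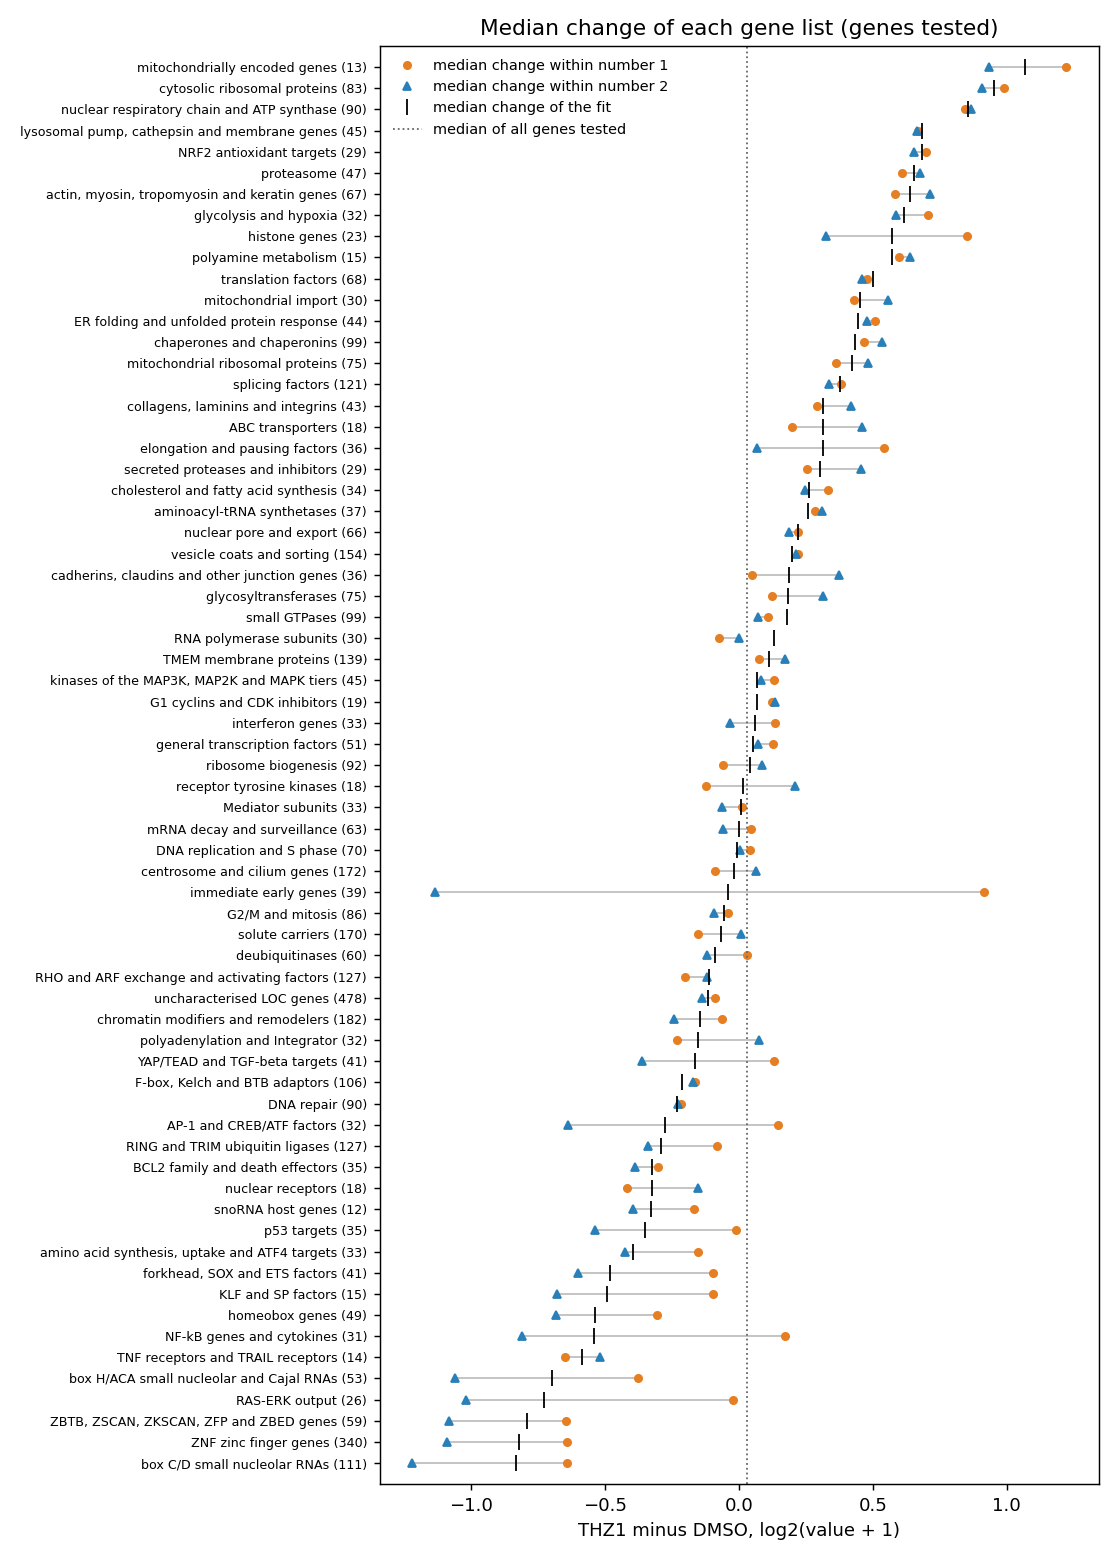
Median change of each gene list with at least 12 tested members (horizontal axis, THZ1 minus DMSO in log2(value + 1)), with the medians within replicate number 1 (circles) and number 2 (triangles), the number of tested members in brackets and a dotted line at the median of all genes (0.03). Box C/D RNAs, both zinc finger lists, RAS-ERK output and box H/ACA RNAs stand at the low end, with medians of -0.83 to -0.70, and mitochondrially encoded, ribosomal protein and respiratory chain genes at the high end, with medians of 1.07, 0.95 and 0.86.

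DNA repair was the class of cell cycle and genome genes with the most lower calls. Of 90 repair genes 9 were called lower (10%, beside 4.04% of all genes), and 12 were at least 2-fold lower within both numbers (13.3%, beside 4.83%). Their median was -0.23 (-0.07 without THZ1 replicate 2 and -0.11 without DMSO replicate 1). XRCC2, of homologous recombination, fell to 3.70 and 2.98, against 13.9 and 16.1 under DMSO (change -1.89, SE 0.34, limma adjusted p = 0.0292). RAD52, which anneals single strands, fell to 0.677 and 1.32, against 6.43 and 4.56, and DCLRE1B, a nuclease that protects telomeres, to 1.93 and 1.75, against 7.11 and 8.62 under DMSO. The nuclease genes and scaffolds EXO1, SLX4 and ERCC4 and the Fanconi anaemia gene FANCF were also called (changes -1.57, -1.40, -1.24 and -1.36).

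Of 70 genes of DNA replication and S phase 6 were called lower (8.57%, beside 4.04% of all genes), with a median of -0.01. GINS1, of the replicative helicase, fell to 3.04 and 5.41, against 22.7 and 18.8 under DMSO, E2F8, a repressor of the E2F family, to 3.39 and 1.57, against 11 and 9.70, and POLD3, a subunit of DNA polymerase delta, to 8.28 and 4.79, against 22.7 and 20.2 under DMSO. The abundant members moved otherwise: the helicase subunit MCM7 had 223 and 237 after THZ1, against 135 and 144 under DMSO, without a call (limma adjusted p = 0.0743). Of 86 genes of G2 and mitosis 4 were called lower (4.65%), near the share of all genes. CCNF, cyclin F, fell to 9.63 and 5.55, against 28.6 and 25.4 under DMSO, SPC24, of the kinetochore, to 7.31 and 6.71, against 28.1 and 18.8, and the kinesin KIF18B to 9.69 and 10, against 30 and 23.9 under DMSO.

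Some genes of death receptor and NF-kB signalling were called lower, and they are named here because they were called. The pathway as a whole was not tested. TNFRSF1A, the main receptor for TNF, fell to 7.94 and 10.5, against 41.9 and 54.9 under DMSO (change -2.27, SE 0.24, limma adjusted p = 0.0146). TRAF2, which binds the receptor complex, fell to 9.26 and 10.2, against 22.5 and 24.2 under DMSO. MAP3K14, the kinase of the noncanonical NF-kB route, fell to 1.52 and 1.41, against 5.04 and 6.19 under DMSO. It was 1 of 2 called lower among 45 kinases of the MAP3K, MAP2K and MAPK tiers (4.44%, near the 4.04% of all genes). FADD fell by 2.62 as given above. Among the BCL2 family and death effectors, 2 of 35 were called lower, FADD and BAK1 (5.71%, near the 4.04% of all genes). BAK1, which forms pores in the mitochondrial membrane, fell to 6.80 and 7.71, against 23.8 and 28 under DMSO. TNFRSF10D, a receptor that binds TRAIL without passing on a death signal, moved the other way, at 77.9 and 34.4 after THZ1, against 11.6 and 4.75 under DMSO (change 2.63, SE 0.48, limma adjusted p = 0.03).

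The list of TNF and TRAIL receptors holds 14 genes, and 2 of them were called lower (14.3%, beside 4.04% of all genes) and 1 higher. The lower ones were the receptor TNFRSF1A and the adaptor TRAF2. Of 31 NF-kB genes and cytokines 4 were called lower (12.9%), and TRAF2 was counted there as well. The median of this second list was 0.17 within number 1 and -0.81 within number 2, and over both it was -0.54, or -0.04 without DMSO replicate 2 and -0.95 without DMSO replicate 1. The transcription factors IRF2 and IRF1 were among these. IRF2 fell to 1.43 and 1.97, against 8.37 and 7.33 under DMSO, and IRF1 to 0.999 and 0.918, against 3.56 and 5.04 under DMSO. TRIM38, a ubiquitin ligase that restrains NF-kB signalling, fell to 1.19 and 1.91, against 9.51 and 9.16 under DMSO, 1 of 6 called lower among 127 RING and TRIM ligases (4.72%). MCL1, a short-lived survival protein of the BCL2 family, had 69.4 and 18.3 after THZ1, against 99.2 and 161 under DMSO, lower in both THZ1 libraries but without a call (change -1.79, SE 0.55, limma adjusted p = 0.0855).

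Ribosomal protein genes were higher after THZ1 nearly without exception at the deposited scaling. A positive change within both numbers was seen in 81 of 83. The median was 0.95, which was 0.99 within number 1 and 0.91 within number 2. Only 4 passed the test (4.82%, beside 0.581% of all genes), and 10 were at least 2-fold higher within both numbers. With limma-voom on recovered reads 11 were called. RPL38 had 307 and 286 after THZ1, against 147 and 129 under DMSO (change 1.10, SE 0.22, limma adjusted p = 0.0372). RPL37, RPL41 and RPS24 were the other called members. RPS2, the most abundant, had 4019.5 and 3721 after THZ1, against 1848 and 1933 under DMSO. Ribosomal protein genes have many processed copies in the genome, and how the authors' counting treated shared reads is not given, so the value of any single member is uncertain. As a share of reads in listed genes they took 5.29% and 6.63% after THZ1, against 3.68% and 4.59% under DMSO.

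Lists of energy supply genes had positive medians at the deposited scaling. Of 90 nuclear genes of the respiratory chain and ATP synthase, 7 were called higher (7.78%, beside 0.581% of all genes). Of the 90, 85 were positive within both numbers, and the median was 0.86. NDUFA12, of complex I, had 109 and 87.4 after THZ1, against 46 and 42.9 under DMSO (change 1.12, SE 0.20, limma adjusted p = 0.0289), and COX7A2, of cytochrome c oxidase, had 84.4 and 89.9, against 39.5 and 40.1 under DMSO. The 13 protein-coding genes of the mitochondrial genome, which a separate polymerase transcribes, had a median of 1.07 without a call by limma (4 higher at an unadjusted p under 0.05; 0 by limma-voom). That median was 0.47 without THZ1 replicate 1, 1.66 without THZ1 replicate 2 and 0.58 without DMSO replicate 2. Their share of reads was 10.3% and 5.45% after THZ1, against 6.26% and 3.74% under DMSO, so the groups overlap. Of 32 glycolysis and hypoxia genes none was called by limma (14 higher at an unadjusted p under 0.05; 1 by limma-voom), with a median of 0.62, and GAPDH had 7389 and 5136 after THZ1, against 3314 and 2491 under DMSO.

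The proteasome, lysosome and NRF2 lists also had positive medians, as abundant genes did in general. Over 5 equal groups of genes by level, the highest, with mean values from 32.6, had a median change of 0.62. Median values were 75.5 for the proteasome, 33.3 for lysosomal genes, 45.6 for NRF2 targets, 33.2 for glycolysis and 44.8 for translation factors. Their median changes, of 0.50 to 0.68, were not tested apart from level. The ubiquitin lists did not have positive medians. The median was -0.21 for 106 F-box, Kelch and BTB adaptors, with 5 called lower (4.72%) and 1 higher (0.943%). It was -0.29 for the RING and TRIM ligases (-0.12 without THZ1 replicate 2). For 60 deubiquitinases it was -0.09 (0.04 without THZ1 replicate 2), with 2 called lower (3.33%) and 1 higher (1.67%). Of all genes 4.04% were called lower and 0.581% higher. Of 47 proteasome genes 3 were called higher (6.38%, median 0.65): PSMB1, a subunit of the core particle, at 193 and 175 after THZ1, against 95.4 and 95 under DMSO, the activator PSME2 at 109 and 90.7, against 51.1 and 51, and the assembly factor POMP at 82.1 and 79.6, against 42.9 and 40.2. Of 45 lysosomal genes 2 were called higher (4.44%, beside 0.581% of all genes, median 0.68). LAPTM4A, a lysosomal membrane protein, had 59.8 and 50.2 after THZ1, against 25 and 26.8 under DMSO. Of 29 targets of the antioxidant factor NRF2 the 1 called was TXN, thioredoxin, at 1139 and 931 after THZ1, against 529 and 449.8 under DMSO (median of the list 0.68). Of 68 translation factors 1 was called, EIF3B, at 182 and 172 after THZ1, against 101 and 102 under DMSO (median 0.50, or 0.32 without THZ1 replicate 1). In the list of endoplasmic reticulum folding and unfolded protein response genes XBP1 fell while PDIA6, a disulfide isomerase, had 127 and 114 after THZ1, against 72.1 and 62.4 under DMSO, and was called higher.

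The direction of these rising classes depends on what is taken as level. The median of all genes moved by -0.54 with an equal total of values in each library, by -0.79 with ribosomal protein genes as reference and by -0.14 with upper-quartile scaling. Taking ribosomal protein genes as reference turned the medians to -0.06 for the respiratory chain, -0.26 for the proteasome, -0.23 for the lysosome, -0.23 for NRF2 targets, -0.28 for glycolysis and -0.41 for translation factors, and the called rises of EIF3B and PDIA6 turned to -0.14 and -0.093. Translation factors also turned with an equal total (-0.11), as did glycolysis (-0.0034). Measured from the all-gene median, the respiratory chain stayed 0.69 above and the proteasome 0.49 above under the ribosomal protein reference. Zinc finger genes and small nucleolar RNAs had a negative median under each scaling run.

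Several RNAs that normally lack a poly(A) tail were higher after THZ1. RN18S1, the 18S ribosomal RNA, had 29.4 and 28 after THZ1, against 1.46 and 1.04 under DMSO (change 3.73, limma adjusted p = 0.012), and RNU2-2, a U2 spliceosomal RNA, had 10.5 and 7.36, against 3.69 and 1.85 under DMSO. RN28S1, the 28S ribosomal RNA, had 27.2 and 63.4 after THZ1, against 3.14 and 3.48 under DMSO, without a call (limma adjusted p = 0.0561). Of 9 such structural RNAs, a set gathered after the values were seen, all were higher within both numbers, beside 41.9% of all genes, and 2 were called higher. The small nucleolar RNAs, which also lack the tail, went the other way, with 137 of 164 negative. The structural RNAs have near-identical copies in the genome, and their level moves with the treatment in libraries selected for poly(A). Its part in the other changes was not tested. NEAT1, the long noncoding RNA that builds paraspeckles, fell to 44.1 and 41.2, against 116 and 272 under DMSO (change -2.04, limma adjusted p = 0.0446).

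Genes with few exons were called lower more often than genes with many. This description was chosen after the values were seen and rests on 9458 tested protein-coding genes matched by name to GENCODE v29, with the exons of the transcript closest in length to the one behind the values. Of 185 genes with 1 exon, 16.8% were called lower, and the share was 13.1% of 397 genes with 2 exons, 7.34% of 1212 with 3 to 4, 3.66% of 2540 with 5 to 8, 2.27% of 3125 with 9 to 16 and 0.850% of 1999 with 17 or more. The median change was -0.57 with 1 exon, -0.46 with 2, -0.04 with 3 to 4 and between 0.08 and 0.11 beyond. Among genes at or below the median level (11) the shares were 23.3% with 1 exon and 1.07% with 17 or more, and above it 4.62% and 0.619%. Without the zinc finger genes they were 15.9% and 0.854%. TIGD5, a gene of 1 exon derived from a transposon, fell to 0.991 and 1.46, against 6.94 and 16.4 under DMSO, and CSTF2T and FANCF above have 1 exon as well.

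Over 5 equal groups of genes by level, from low to high, 6.12%, 7.22%, 4.31%, 2.38% and 0.176% were called lower, and 0%, 0.088%, 0.088%, 0.352% and 2.38% higher. The median changes of these groups were -0.315, -0.217, -0.076, 0.176 and 0.617. Over 5 groups by the gene length behind the values, from short to long, 3.30%, 4.58%, 5.89%, 4.63% and 1.80% were called lower, with no steady order. The shares called higher went down steadily with length, at 1.5%, 0.792%, 0.308%, 0.22% and 0.088%. The median change went down as well, at 0.359, 0.107, -0.048, -0.055 and -0.074. The median value was 15.2 in the shortest group and 6.84 in the longest, and length was not tested apart from level. Low genes have larger counting error, and the pseudocount shrinks their changes. The table holds only genes with a DMSO mean above 1, so low genes entered it through their DMSO value and could fall more readily than rise. Nothing is read from the order of these shares and medians by level.

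**Figure D5:**
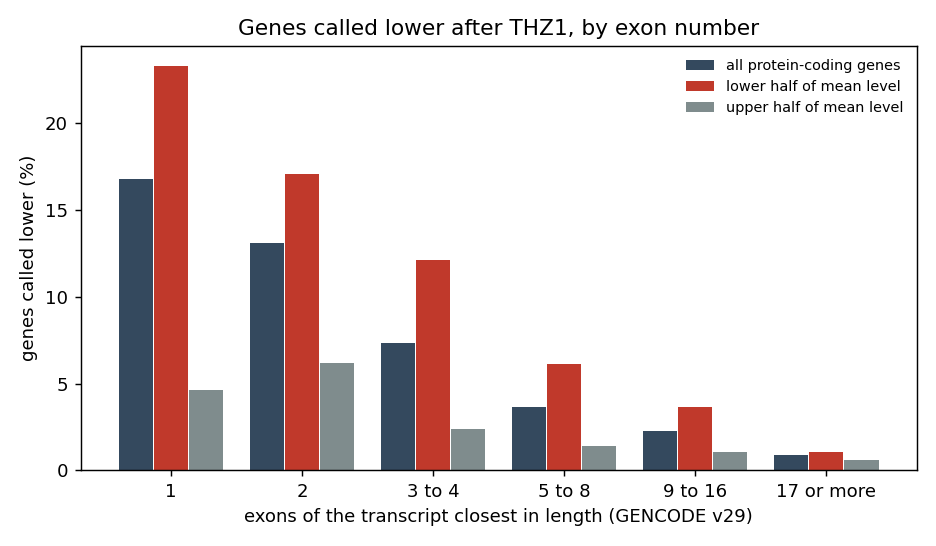
Percent of protein-coding genes called lower (vertical axis) by number of exons (horizontal axis), for all genes and for those below and above the median level. In all genes the percent goes from 16.8 with 1 exon to 0.850 with 17 or more, and genes below the median level stand higher than those above it in each class.

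Immediate early genes, which growth signals switch on within minutes, differed widely between the DMSO libraries. Of 39 genes, 38 were higher in DMSO 2 than in DMSO 1, with a median ratio of 2.87, beside 0.979 over all genes. Between the THZ1 libraries 10 of 39 were higher in THZ1 2 than in THZ1 1, with a median ratio of 0.634, beside 0.973 over all genes. Within number 1 the median change was 0.92 and 31 genes were positive, and within number 2 it was -1.14 and 30 were negative. EGR1 had 116 and 134 after THZ1, against 9.47 and 382 under DMSO, so that the DMSO values enclose both THZ1 values. MYC had 83.6 and 25.5 after THZ1, against 48.1 and 161 under DMSO, and the groups overlap. The serum conditions at harvest are not described per library, and the part of this difference in the other results was not tested.

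A few of them were higher in both THZ1 libraries than in either DMSO library all the same. FOS had 29.8 and 74.6 after THZ1, against 2.90 and 14.9 under DMSO (within-number changes 2.98 and 2.25), JUNB had 183 and 149.8, against 12.6 and 78.3 under DMSO, and IER2 had 249 and 363, against 41.7 and 147 under DMSO. Their limma adjusted p-values were 0.0865, 0.0805 and 0.079, and ARC, described above, was the 1 called gene of the list. DUSP1, a phosphatase that ends MAP kinase signals, had 15.6 and 7.16 after THZ1, against 18.4 and 141 under DMSO.

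The RAS-ERK output genes, which that growth pathway switches on, had a median of -0.73 over 26 genes, which was -0.02 within number 1 and -1.02 within number 2. It was -0.26 without DMSO replicate 2 and -0.28 without THZ1 replicate 2. None was called by limma (5 lower at an unadjusted p under 0.05; 2 lower by limma-voom). FOSL1, a FOS family factor that ERK signalling stabilises, had 171 and 79 after THZ1, against 384 and 288 under DMSO, and fell by more than 2-fold within both numbers (change -1.51, SE 0.35, limma adjusted p = 0.0527). DUSP6, a phosphatase that ERK induces, had 25 and 9.20 after THZ1, against 19 and 43.2 under DMSO, with overlapping groups. Of the 26 genes 21 were higher in DMSO 2 than in DMSO 1.

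Set beside BCPAP, most genes called in CAL-62 had the same sign there and a smaller change. Of the 459 genes called lower in CAL-62, 446 are in both tables, and their median change was -1.52 in CAL-62 and -0.50 in BCPAP, where 431 of the 446 were negative. Of those called higher, 64 are in both tables, with medians of 0.97 in CAL-62 and 0.40 in BCPAP, where 63 were positive. Over all 10653 genes compared the BCPAP median was 0.08. The genes were chosen by their change in CAL-62, so a smaller size in BCPAP is no test of a difference. The direct test of the difference between the lines called 0 of 10653 genes with limma (580 at an unadjusted p under 0.05, smallest limma adjusted p = 0.757), and the lines also differ in medium and serum.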

How the data were processed

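The series holds 8 RNA-seq libraries made from oligo(dT)-selected RNA. The authors' deposited tables hold 1 RPKM-type value per gene and library, without a header; the unit was inferred from the values. Bowtie2, DESeq2 and hg19 are named without roles, per the submitters' processing notes. Neither the gene annotation nor the strand setting is given in the sources used here. Whole reads were recovered from the values for all 12715 genes within 0.005 reads, and the totals behind the values put a typical gene level between libraries.

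limma 3.58.1 (R 4.3.3) was fitted with a mean-variance trend to log2(value + 1), with 4 group means over the 8 libraries. Genes had a mean of at least 1 over the libraries of both lines that list them. A gene in the CAL-62 table alone was fitted on its 4 libraries. Tests were two-sided and adjusted over 11362 genes by Benjamini-Hochberg. The script was tested on simulated data. The plan had a count test for count tables; since the tables hold normalized values, limma was used, with limma-voom on the recovered reads as an alternative.

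The gene lists and the rule for named genes were chosen with earlier results of these data known. Per list, the rule takes the called members and the members of 2-fold change within both numbers that changed most and the 2 highest in level, and over all genes the largest called changes with a mean of at least 5. Named outside it, after their values were seen, were CSTF3, DUSP1, DUSP6, ERCC4, EXO1, FANCF, GAS5, JUNB, MYC, NEAT1, RN28S1, RPL3, RPL7A, RPS24, SLX4, SNORD36C, SNORD76, SNORD83B and TAF11. Gene symbols are as in the deposited tables. Exon numbers come from GENCODE v29 and promoters from RefSeq (GRCh38.p14), matched by symbol. Alternatives were other scalings, pseudocounts, filters, a replicate block, the CAL-62 libraries alone, limma-voom and leaving out each library.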

Additional observations from a re-analysis of the deposited data

How the results depend on the processing

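The counts of genes called lower and higher (459 and 66) stayed within 1.5 times of these values with a pseudocount of 0.5 or 0.1, with no filter and with median-of-ratios scaling. They were 690 and 24 with upper-quartile scaling, 2468 and 8 with an equal total of values, 2780 and 4 with ribosomal protein genes as reference, 177 and 19 at a mean of at least 5, and 546 and 110 with limma-voom. The CAL-62 libraries alone gave 0 and 0. Leaving out each library in turn gave between 0 and 522 lower and between 0 and 289 higher. With a replicate block the counts were 2060 and 2503, so that most were higher, and all 525 calls were among them. No label explains the replicate numbers. Over the genes tested, the deviations of same-numbered libraries from their group means were correlated (0.469), so these libraries deviated partly together. With only 2 pairs, whether the numbers mark a true pairing was not tested.

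Genes at least 2-fold lower within both numbers (549) came to 931 with a pseudocount of 0.1, 309 at a mean of at least 5, 1592 with an equal total and 2576 with ribosomal protein genes as reference. Those at least 2-fold higher (87) came to 29 with upper-quartile scaling, 8 with an equal total and 7 with ribosomal protein genes as reference. With ribosomal protein genes as reference EIF3B had -0.14 and PDIA6 -0.093, and 48 of the 66 genes called higher kept their sign. Under the other alternatives run, all tested genes called lower or higher kept theirs. Depth limits the small nucleolar RNAs.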
